A study of Arabidopsis thaliana with 14 samples.

Results

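The cold response of chromatin at the Arabidopsis floral repressor gene *FLOWERING LOCUS C* (*FLC*) was compared between 2 genotypes, *vrn1-4* FRI and WT FRI. All 14 of the 14 libraries entered the comparison. For each genotype the cold minus warm change of fragment share was computed along the *FLC* target region, and the change of *vrn1-4* FRI was set against that of WT FRI. The region (chromosome 5, 3172382 to 3181949, 9568 bp) was divided into 96 bins of 100 bp by fragment midpoint, and into 11 gene parts. All 96 bins passed the filter on low shares.

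The study used targeted MNase-seq, in which chromatin is cut by micrococcal nuclease and the surviving DNA is captured with baits against the locus before sequencing. The groups were *vrn1-4* FRI 1W cold (4 libraries), *vrn1-4* FRI warm (3 libraries), WT FRI 1W cold (4 libraries) and WT FRI warm (3 libraries). Whole seedlings were grown for 10 days at 22 °C, and the cold groups then spent 1 week at 5 °C. Every plant carried an active *FRIGIDA* (*FRI*) allele, introgressed from the accession San Feliu-2 into Col-0, and the *vrn1-4* plants in addition carried a mutation in *VERNALIZATION1* (*VRN1*). Because the values cover *FLC* fragments only, the *VRN1* genotype and the tissue could not be checked from them. Whole seedlings mix cell types, so a change within cells and a change in the cell mixture cannot be told apart. The cold plants were also 1 week older, so cold and age cannot be told apart. The replicates of a group are separate samples by their labels, and the p-values measure the spread between them.

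*FLC* delays flowering by repressing the genes that promote it, and FRI keeps *FLC* highly transcribed in seedlings grown in the warm. Prolonged cold (vernalisation) represses *FLC* transcription and silences the gene through Polycomb proteins, whose marks nucleate just downstream of the transcription start site (TSS). VRN1 is a plant-specific DNA-binding protein that is needed for stable silencing. MNase cuts linker DNA between nucleosomes first, so fragments of nearly nucleosomal length mark where a histone core protected the DNA, and shorter fragments mark cores that were trimmed or partly unwrapped.

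The values were fractions of all *FLC* fragments of 100 to 150 bp in a library. They are given here as shares in percent, so a gain at one place requires a loss elsewhere and a change over the whole locus is not visible. The files state no counts or depths, only fractions, and no counts were inferred from them, so the depth is treated as unknown. The libraries held 14166 to 124173 distinct fragments, and 99.9% or more of each library had its midpoint inside the region. A change is a difference of mean log2 share, cold minus warm. For bins, and for combinations of gene part and length class, 0.0001 was added to the share before the log. This understates the change of a bin with a low share. The genotype difference is the *vrn1-4* FRI change minus the WT FRI change.

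Some libraries stood apart from their groups. WT FRI warm replicate 2 held the fewest distinct fragments (14166). Placed on the change profile of the other genotype, *vrn1-4* FRI 1W cold replicate 4 and WT FRI 1W cold replicate 1 lay within the range of the warm libraries, and WT FRI warm replicate 3 lay above a cold library. Counts of bins past the threshold are given with and without them. Of these libraries, counts of gene parts are given without *vrn1-4* FRI 1W cold replicate 4 and without WT FRI warm replicate 2.

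The sequences of 4 bins are shown. The bin at 367 to 466 bp passed the test of the genotype difference. The other 3 passed the test of the average change. They were also the 3 of 96 bins (3.12%) with cold and warm libraries apart in each genotype. Libraries were apart in 14.6% of bins in *vrn1-4* FRI and in 21.9% in WT FRI, and nothing is read from this trait. Most of the test calls of these bins depended on single libraries. Over 14 omissions of a single library, the genotype difference kept its call in 2. The average change kept its call in 6 (767 to 866 bp), 5 (3667 to 3766 bp) and 13 (4867 to 4966 bp). The sequences are read from RefSeq assembly TAIR10.1 on the minus strand, the strand of *FLC*. Capitals mark the 20 bases that held the most fragment midpoints over all libraries. All 237 *FLC* baits of the study matched this assembly at the position in their names, so its coordinates are those of the TAIR10 build used for the files. All 4 bins lie in introns, and positions are given as distance downstream of the TSS.
Bin at 367 to 466 bp, intron 1, chr5:3178982-3179081: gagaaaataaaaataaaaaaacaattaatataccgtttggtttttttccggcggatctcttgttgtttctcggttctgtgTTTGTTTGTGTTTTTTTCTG
Bin at 767 to 866 bp, intron 1, chr5:3178582-3178681: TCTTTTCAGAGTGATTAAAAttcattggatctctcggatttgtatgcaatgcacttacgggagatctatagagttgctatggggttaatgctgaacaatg
Bin at 3667 to 3766 bp, intron 1, chr5:3175682-3175781: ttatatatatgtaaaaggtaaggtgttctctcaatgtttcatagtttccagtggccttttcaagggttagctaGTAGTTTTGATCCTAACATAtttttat
Bin at 4867 to 4966 bp, intron 6, chr5:3174482-3174581: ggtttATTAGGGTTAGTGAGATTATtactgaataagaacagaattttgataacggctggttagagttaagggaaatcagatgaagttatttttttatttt
Their GC content was 31.0%, 38.0%, 31.0% and 29.0% in this order. The capitals held 43.2%, 34.0%, 38.3% and 56.7% of the midpoints of their bins.

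The 2 change profiles resembled each other over the locus. In 71 of the 96 bins (74.0%) the share changed in the same direction in both genotypes, with 46 bins higher and 25 lower in the cold. Of the other 25 bins, 20 were higher in the cold in *vrn1-4* FRI and lower in WT FRI, and 5 had the opposite pattern. The correlation of the changes was Pearson r = 0.66 and Spearman rho = 0.61 over 96 bins. This is a description across bins of the same libraries, whose shares sum to a fixed total and whose neighbours can lie on the same nucleosome, and not a test. The spread of the changes was also similar, with an SD over bins of 0.26 in *vrn1-4* FRI and 0.30 in WT FRI, and a median absolute change of 0.18 in *vrn1-4* FRI and 0.21 in WT FRI. The median change itself was 0.11 in *vrn1-4* FRI and 0.01 in WT FRI. With the changes of each bin divided into a mean of both genotypes and a deviation from it, the mean held 82.9% of the summed squares.

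**Figure D1:**
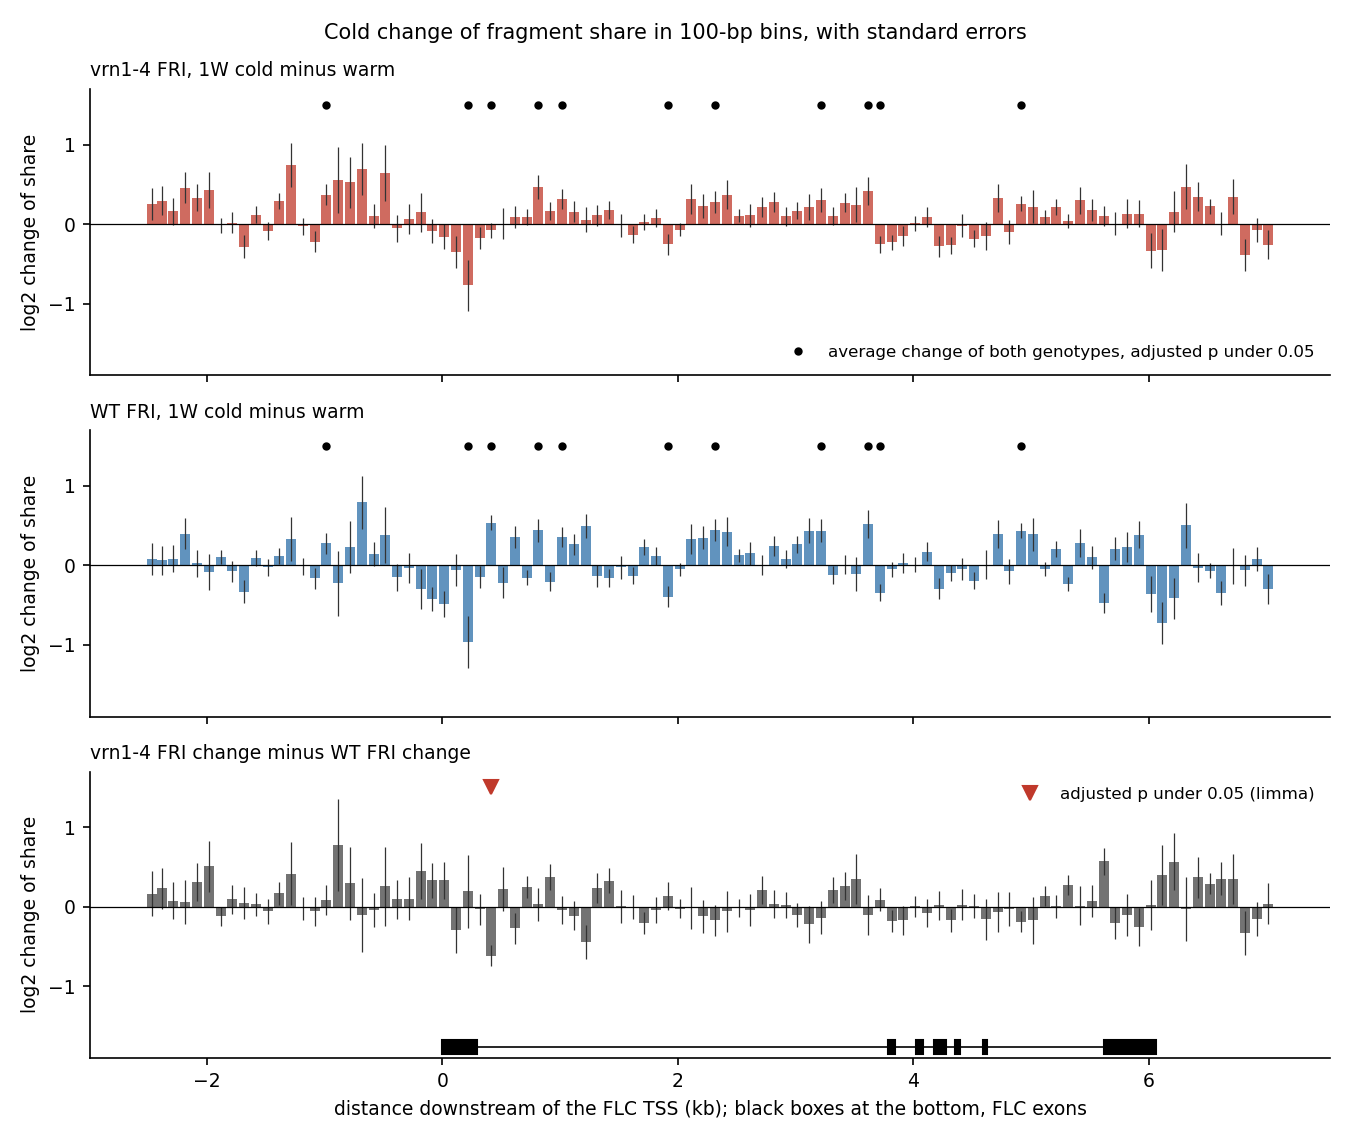
Log2 cold change of the fragment share in 100-bp bins against distance from the *FLC* TSS, for *vrn1-4* FRI (top) and WT FRI (middle), and the genotype difference (bottom), with standard errors from limma. Dots mark the 11 bins past the threshold for the average change and the triangle the 1 bin past it for the genotype difference.

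Directions were also compared in bins picked by the change of 1 genotype. Among the 28 bins (29.2% of all) with unadjusted p under 0.05 in WT FRI, 24 (85.7%) had the same direction in *vrn1-4* FRI, against 74.0% of all bins. Among the 15 bins (15.6%) picked in the same way in *vrn1-4* FRI, 14 (93.3%) had the same direction in WT FRI. A total of 6 bins had an unadjusted p under 0.05 in each genotype, and all 6 moved alike. The libraries of the 2 genotypes are separate, so the direction in the second genotype was not used in the choice. Its spread was, because the fit takes 1 estimate of the spread from all libraries.

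Likeness varied along the locus. Inside the gene the direction was shared in 47 of 60 bins (r = 0.73) and upstream of the TSS in 19 of 25 (r = 0.69). In the 3' flank it was shared in 4 of 10 bins, although r was 0.60 there. The lowest likeness among parts with at least 6 bins was at the start of intron 1 from the +3 nucleosome, where 2 of 6 bins shared the direction and r was 0.16. The middle of intron 1 and its 3' part each had 12 of 14 bins in the same direction (r = 0.72 in the middle and 0.76 in the 3' part). These counts are small and were not tested against each other.

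The resemblance was as large with fragment length held equal. With every library given the same length distribution, r was 0.71 and 75 bins shared the direction. Computed separately within fragments under 130 bp and of 130 to 150 bp, r between genotypes was 0.65 and 0.67, with 71 bins in the same direction in each class.

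Base composition moved with both profiles. MNase cuts A- and T-rich DNA more readily, and across the 96 bins the cold change was lower where GC content was higher, with r = -0.77 in *vrn1-4* FRI and r = -0.51 in WT FRI, against r = -0.20 for the genotype difference. In each library, the slope of the log2 share (relative to the mean of all libraries) on GC content was expressed per 10 percentage points of GC. It was 0.23, 0.08, -0.12 and 0.47 in *vrn1-4* FRI 1W cold, against 0.59, 0.39 and 0.36 in *vrn1-4* FRI warm. It was -0.16, -0.57, -0.45 and -0.34 in WT FRI 1W cold, against -0.16, -0.06 and -0.26 in WT FRI warm. The cold libraries thus had lower slopes on average in both genotypes, with overlap between cold and warm in each. The average cold change of the slope was -0.25 (exact permutation test, two-sided, p = 0.0269, 1225 arrangements) and its genotype difference was -0.07 (exact permutation test, p = 0.869). The second test permutes genotype labels, and the mean slope was higher in *vrn1-4* FRI at both temperatures. That gap makes a difference of the cold change harder to detect. This slope was chosen for testing after its values were seen. When the shares were adjusted for GC in each library, r between the 2 change profiles was 0.49 and 67 of 96 bins shared the direction. The part of MNase digestion in these values was not tested.

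**Figure D2:**
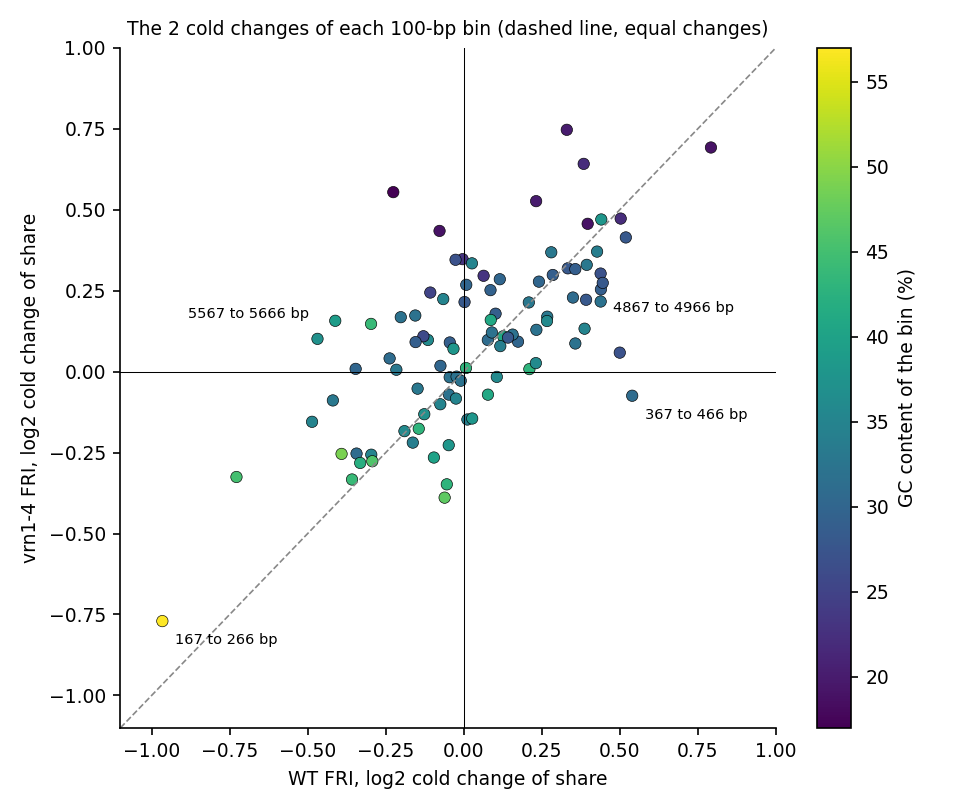
Log2 cold change of each of the 96 bins in *vrn1-4* FRI (vertical axis) against WT FRI (horizontal axis), coloured by GC content in percent. Most bins lie in the quadrants of shared direction, high-GC bins sit to the lower left, and the bin at 367 to 466 bp lies far to the right at a *vrn1-4* FRI change near 0.

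Each library was also placed on the change profile of the other genotype. On this scale 0 is the mean of the genotype's own warm libraries and 1 a shift along the full change of the other genotype. The *vrn1-4* FRI 1W cold libraries scored 0.661, 0.856, 1.09 and -0.184 on the WT FRI change, and the *vrn1-4* FRI warm libraries -0.294, 0.0902 and 0.204. Replicates 1 to 3 of the cold group were above every warm library, and replicate 4 was among the warm libraries. The WT FRI 1W cold libraries scored 0.0976, 1.26, 0.877 and 0.646 on the *vrn1-4* FRI change, and the WT FRI warm libraries -0.160, -0.242 and 0.402. Here cold replicate 1 lay below warm replicate 3. Without *vrn1-4* FRI 1W cold replicate 4, r between the profiles was 0.73.

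The average cold change of both genotypes was tested bin by bin (limma with Benjamini-Hochberg adjustment over 96 bins, threshold 0.05). It passed in 11 bins (11.5%), of which 8 (8.33%) were higher and 3 (3.12%) lower in the cold. Without adjustment, p was under 0.05 in 37 bins (38.5%). Of the 11, 10 had the same direction in both genotypes, against 74.0% of all bins, but a choice by the average itself favours bins in which both genotypes move alike, so nothing is read from this count. The other was the bin at 367 to 466 bp, whose average change came from WT FRI. The bins lay in intron 1 (8 bins), intron 6 (1 bin), exon 1 (1 bin) and upstream of the TSS (1 bin). By comparison, for the change of 1 genotype in the same fit, 0 bins passed in *vrn1-4* FRI (15 bins, 15.6%, at unadjusted p under 0.05 by limma). In WT FRI 2 bins (2.08%) passed, those at 367 to 466 bp and at 4867 to 4966 bp.

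The bin with the smallest p for the average change lay in intron 6, at 4867 to 4966 bp. Its share was 1.01, 1.09, 1.10 and 0.991% in *vrn1-4* FRI 1W cold, against 0.844, 0.903 and 0.885% in *vrn1-4* FRI warm. In WT FRI it was 1.37, 1.69, 1.62 and 1.53% in 1W cold, against 1.05, 1.17 and 1.21% in warm. All cold libraries exceeded all warm libraries of their genotype. The change was 0.25 in *vrn1-4* FRI and 0.44 in WT FRI (SE 0.09 each), the average 0.35 (SE 0.07, limma adjusted p = 0.0137), and the genotype difference -0.19 (SE 0.13, limma adjusted p = 0.879).

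At 767 to 866 bp, in a stretch of intron 1 with few midpoints, the share was 0.194, 0.218, 0.262 and 0.225% in *vrn1-4* FRI 1W cold, against 0.164, 0.167 and 0.146% in *vrn1-4* FRI warm. It was 0.234, 0.334, 0.259 and 0.257% in WT FRI 1W cold, against 0.154, 0.209 and 0.230% in WT FRI warm. The cold and warm libraries did not overlap in either genotype, and the changes were nearly equal, 0.47 in *vrn1-4* FRI and 0.44 in WT FRI (average 0.46, SE 0.10, limma adjusted p = 0.0331). The genotype difference was 0.03, with a 95% interval from -0.42 to 0.48.

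At 3667 to 3766 bp, in the last part of intron 1, the share fell in the cold, with a change of -0.25 in *vrn1-4* FRI and -0.34 in WT FRI. The share was 1.55, 1.65, 1.67 and 1.63% in *vrn1-4* FRI 1W cold, against 1.75, 2.27 and 1.84% in *vrn1-4* FRI warm, and 1.56, 1.87, 1.72 and 1.83% in WT FRI 1W cold, against 2.33, 2.24 and 2.07% in WT FRI warm. Again the groups did not overlap. The average change was -0.30 (SE 0.07, limma adjusted p = 0.0342), and the adjacent bin at 3567 to 3666 bp rose, with an average change of 0.47 (SE 0.13, limma adjusted p = 0.0342). In only 3 of 96 bins (3.12%) were cold and warm libraries apart in both genotypes. These were the bins at 767 to 866, 3667 to 3766 and 4867 to 4966 bp. Cold and warm libraries were apart in 14 bins (14.6%) in *vrn1-4* FRI and in 21 (21.9%) in WT FRI. Whether 3 bins exceed what these 2 rates give together was not tested, so nothing is read from this count.

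The largest change among the bins past the threshold was a fall in exon 1, at 167 to 266 bp, within the stretch of the +1 and +2 nucleosomes. The share was 1.61, 1.21, 1.26 and 2.69% in *vrn1-4* FRI 1W cold, against 3.49, 2.57 and 2.30% in *vrn1-4* FRI warm, and 1.27, 0.566, 0.574 and 0.669% in WT FRI 1W cold, against 1.21, 2.11 and 1.13% in WT FRI warm. In each genotype 1 cold library (*vrn1-4* FRI replicate 4 and WT FRI replicate 1) lay within the warm range. The average change was -0.87 (SE 0.23, limma adjusted p = 0.0342) and the genotype difference 0.20 (SE 0.46). This bin had a GC content of 57.0%, the highest of the named bins, and after GC adjustment its average change was -0.27 and did not pass (limma adjusted p = 0.104). The call did not hold in 11 of the 14 omissions of a single library, and the smallest change was -0.73, without WT FRI warm replicate 2 (limma adjusted p = 0.0838). It held without WT FRI warm replicate 3 (-0.95, limma adjusted p = 0.0228) and without either of the 2 cold libraries in the warm range, with -0.99 without *vrn1-4* FRI replicate 4 (limma adjusted p = 0.00411) and -1.0 without WT FRI replicate 1 (limma adjusted p = 0.00784).

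The remaining bin named, at 967 to 1066 bp in intron 1, rose by 0.34 on average (SE 0.09, limma adjusted p = 0.0342). Cold and warm libraries overlapped in *vrn1-4* FRI and were apart in WT FRI. After GC adjustment it no longer passed (0.24, limma adjusted p = 0.0535).

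The count of bins with an average change depended on single libraries. Without any 1 of the 14 libraries it moved by more than 1.5 times. It was 40 without *vrn1-4* FRI 1W cold replicate 4, 25 without WT FRI 1W cold replicate 1 and 22 without WT FRI warm replicate 3, and between 0 and 4 without each of the other 11 libraries, with 0 without WT FRI warm replicate 1. With the replicate number as a block the count was 33 (additive) or 30 (within genotype), against 34 with replicates 1 to 3 of every group and no block. Within *vrn1-4* FRI alone the block within genotype gave 12 bins in place of 0 and the additive block 0, and leaving out cold replicate 4 gave 9. Within WT FRI the block gave 17 bins (additive) or 0 (within genotype) in place of 2. The WT FRI count was 14 without *vrn1-4* FRI 1W cold replicate 4, 10 without WT FRI warm replicate 3, 9 without WT FRI 1W cold replicate 1, and 1 without WT FRI 1W cold replicate 2 or 3 or WT FRI warm replicate 1 or 2. Of the named bins, the one at 4867 to 4966 bp kept its average call in 13 of 14 omissions, losing it without WT FRI warm replicate 1 (limma adjusted p = 0.0533). The bin at 767 to 866 bp kept it in 6, the bin at 3667 to 3766 bp in 5, and the bins at 167 to 266, 967 to 1066 and 3567 to 3666 bp in 3 each. With GC-adjusted shares 7 bins passed, 5 of them among the 11.

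A genotype difference of the cold change was tested in the same fit. It passed in 1 of 96 bins (1.04%), and p was under 0.05 before adjustment in 5 bins (5.21%). The median standard error of the genotype difference of a bin was 0.20. After adjustment, a difference of 0.57 in another bin did not pass (limma adjusted p = 0.281). Differences well above 0.20 could therefore be missed, and the low count does not show that the responses were alike.

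The bin that passed lay at the start of intron 1, at 367 to 466 bp, downstream of exon 1 and at the TSS side of the stretch from the +3 nucleosome. Its share was 0.630, 0.572, 0.637 and 0.534% in *vrn1-4* FRI 1W cold, against 0.598, 0.671 and 0.605% in *vrn1-4* FRI warm. In WT FRI it was 1.06, 1.09, 1.03 and 0.938% in 1W cold, against 0.692, 0.687 and 0.733% in warm. The cold libraries of WT FRI were above every other library, and the *vrn1-4* FRI groups overlapped. The change was -0.07 in *vrn1-4* FRI (SE 0.09) and 0.54 in WT FRI (SE 0.09, 1.46-fold). The genotype difference was -0.61 (SE 0.13, 95% interval from -0.90 to -0.33, limma adjusted p = 0.0374).

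The size of this difference was steady and its call was not. Without each library in turn it was between -0.66 and -0.56, and it passed only without *vrn1-4* FRI 1W cold replicate 3 or WT FRI 1W cold replicate 4, with adjusted p from 0.0332 to 0.137 over the 14 omissions (limma). With the additive replicate block it was -0.61 (limma adjusted p = 0.0609), and with the block within genotype -0.61 (limma adjusted p = 0.357). GC adjustment left it at -0.63 (limma adjusted p = 0.0201), and 0.0462 with the block added. Counting each distinct fragment once, whatever its frequency, reduced it to -0.28 (limma adjusted p = 0.575). With bins of 50 bp, 1 bin passed, at 417 to 466 bp in the part of the same bin farther from the TSS, with a difference of -0.82 (SE 0.17, limma adjusted p = 0.0481).

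**Figure D3:**
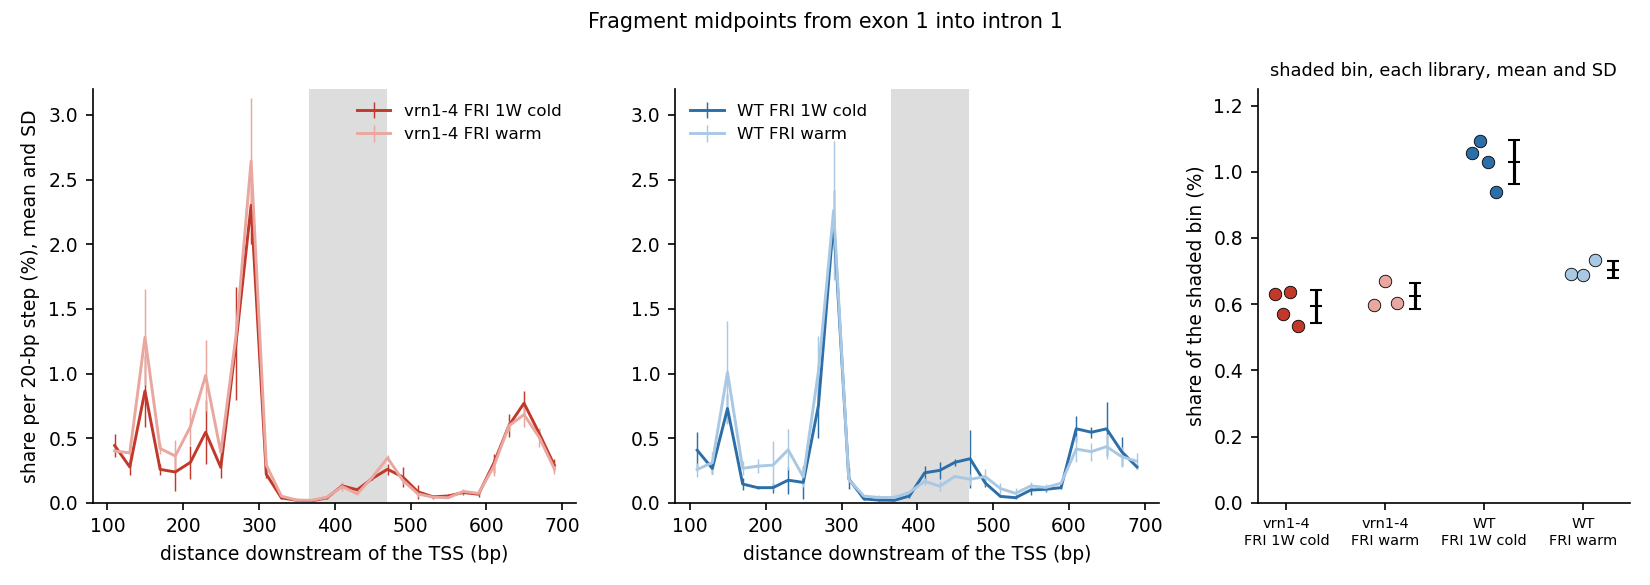
Share of fragment midpoints in 20-bp steps (mean and SD) against distance from the TSS in *vrn1-4* FRI (left) and WT FRI (middle), and the share of the shaded bin at 367 to 466 bp in each library with the group mean and SD (right). The 4 WT FRI 1W cold libraries sit between 0.938 and 1.09%, above all others.

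Steps of 20 bp, chosen after the values were seen and not tested, showed where the midpoints lay. At 420 to 439 bp the share was 0.106, 0.106, 0.109 and 0.0820% in *vrn1-4* FRI 1W cold, against 0.0632, 0.0788 and 0.0668% in *vrn1-4* FRI warm, and 0.158, 0.289, 0.291 and 0.266% in WT FRI 1W cold, against 0.136, 0.0878 and 0.163% in WT FRI warm. In this step the *vrn1-4* FRI cold libraries were all above the warm ones as well. At 440 to 459 bp the share was 0.201, 0.176, 0.199 and 0.180% in *vrn1-4* FRI 1W cold, against 0.196, 0.211 and 0.189% in *vrn1-4* FRI warm, and 0.325, 0.345, 0.307 and 0.277% in WT FRI 1W cold, against 0.206, 0.215 and 0.192% in WT FRI warm. Here the 4 WT FRI cold libraries, replicate 1 included, were above all WT FRI warm libraries, and the *vrn1-4* FRI groups overlapped. The next step, 460 to 479 bp, lies mostly beyond the bin. Its share was 0.301, 0.219, 0.289 and 0.230% in *vrn1-4* FRI 1W cold, against 0.368, 0.317 and 0.356% in *vrn1-4* FRI warm, so that all cold libraries were lower. In WT FRI this step held 0.679, 0.257, 0.210 and 0.218% in 1W cold, against 0.194, 0.136 and 0.216% in warm. WT FRI 1W cold replicate 1 was far above the other libraries in this step.

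The second smallest p for a genotype difference was found at the other end of the gene, at 5567 to 5666 bp, across the boundary of intron 6 and exon 7. The share was 3.95, 4.26, 3.58 and 5.00% in *vrn1-4* FRI 1W cold, against 3.81, 3.97 and 3.87% in *vrn1-4* FRI warm, and 2.63, 2.47, 2.95 and 3.17% in WT FRI 1W cold, against 4.14, 4.07 and 3.43% in WT FRI warm. In WT FRI all cold libraries were lower, and in *vrn1-4* FRI the groups overlapped. The change was 0.10 in *vrn1-4* FRI and -0.47 in WT FRI, and the difference of 0.57 (SE 0.18, 95% interval from 0.19 to 0.95) did not pass (limma adjusted p = 0.281).

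The next 4 bins by p did not pass either (limma adjusted p = 0.808 each). They lay in intron 1 at 867 to 966 bp and at 1367 to 1466 bp, in intron 6 at 5267 to 5366 bp and in the 3' flank at 6467 to 6566 bp. In each the change was positive in *vrn1-4* FRI (0.04 to 0.22) and negative in WT FRI (-0.24 to -0.07). The bin at 867 to 966 bp lies next to the one at 767 to 866 bp whose average change passed.

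Summed over gene parts, the average cold change passed in 4 of 11 parts (36.4%, exact permutation test with Benjamini-Hochberg adjustment over 11 parts), and a genotype difference passed in 0 (0 also at an unadjusted p under 0.05, and 0 by limma over the 11 parts). The smallest unadjusted p for a genotype difference was 0.250, in exon 7. The exact test of this difference permutes genotype labels, so a gap in level between the genotypes makes a difference of the cold change harder to detect. The count of 0 does not show that the parts responded alike.

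The promoter (-1000 to -221 bp from the TSS) rose in the cold. Its share was 2.87, 3.11, 3.48 and 2.81% in *vrn1-4* FRI 1W cold, against 2.53, 2.60 and 2.63% in *vrn1-4* FRI warm, and 3.72, 3.75, 3.32 and 3.15% in WT FRI 1W cold, against 3.04, 3.01 and 3.46% in WT FRI warm. The cold libraries were all above the warm ones in *vrn1-4* FRI and overlapped with them in WT FRI. The change was 0.24 in *vrn1-4* FRI and 0.14 in WT FRI (average 0.19, SE 0.06, exact permutation test, adjusted p = 0.0337).

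The summed share of the +1 and +2 nucleosomes (60 to 379 bp downstream), the first beyond the TSS, fell. They held 7.50, 7.33, 5.93 and 8.15% in *vrn1-4* FRI 1W cold, against 9.23, 8.88 and 9.75% in *vrn1-4* FRI warm, and 6.57, 4.78, 5.38 and 5.57% in WT FRI 1W cold, against 7.70, 7.09 and 5.53% in WT FRI warm. The groups were apart in *vrn1-4* FRI, and in WT FRI warm replicate 3 lay among the cold libraries. The change was -0.37 in *vrn1-4* FRI and -0.28 in WT FRI (average -0.32, SE 0.10, exact permutation test, adjusted p = 0.0337). Of the 5 length classes of this part, 1 was higher in the cold in WT FRI and 0 in *vrn1-4* FRI. It was the class of 140 to 150 bp, where WT FRI changed by 0.21 and *vrn1-4* FRI by -0.12 (SE 0.14 each). Neither change passed (limma adjusted p = 0.188 and 0.613), and each genotype had overlapping cold and warm libraries. The genotype difference of -0.34 (SE 0.20) did not pass either (limma adjusted p = 0.364). This class was picked for its direction after the values were seen, so no opposite response is read from it. This part had the highest GC content of the 11 parts, 46.6%, and the promoter the lowest, 26.8%. The fall was not even within the part. At 80 to 99 bp, a step of 20 bp picked after the values were seen and not tested, the share rose in WT FRI. It was 0.167, 0.233, 0.244 and 0.272% in 1W cold, against 0.0646, 0.109 and 0.103% in warm. In *vrn1-4* FRI it was 0.152, 0.130, 0.137 and 0.185% in 1W cold, against 0.152, 0.0989 and 0.0791% in warm, with overlap. At 220 to 239 bp the mean fell in both, from 0.985 to 0.546% in *vrn1-4* FRI and from 0.410 to 0.175% in WT FRI. Cold and warm libraries overlapped in each genotype. Cold replicate 4 of *vrn1-4* FRI (0.897%) and cold replicate 1 of WT FRI (0.330%) lay within the warm range.

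The start of intron 1 from the +3 nucleosome (380 to 999 bp) rose by 0.16 on average (SE 0.06), with 0.11 in *vrn1-4* FRI and 0.20 in WT FRI. Intron 6 rose by 0.14 on average (SE 0.04), with 0.13 in *vrn1-4* FRI and 0.15 in WT FRI (exact permutation test, adjusted p = 0.0337 for each of these parts). The bins at the start of intron 1 shared the direction in 2 of 6 cases, while its summed share was on average higher in the cold in each genotype. Without *vrn1-4* FRI 1W cold replicate 4, 7 parts passed, and without any of 7 other libraries (each warm *vrn1-4* FRI library, WT FRI 1W cold replicates 2 and 3, and WT FRI warm replicates 1 and 2) none passed. Without WT FRI 1W cold replicate 4, 2 parts passed. With fewer libraries the exact test has fewer arrangements.

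Away from these parts, the largest gaps between the genotypes were in exon 7 and at the -1 nucleosome and TSS gap. Exon 7 held 6.16, 5.99, 5.71 and 7.57% in *vrn1-4* FRI 1W cold, against 6.88, 5.86 and 6.25% in *vrn1-4* FRI warm, and 4.83, 4.18, 4.55 and 4.81% in WT FRI 1W cold, against 5.60, 6.01 and 5.10% in WT FRI warm. The means were 6.35 ± 0.83% in *vrn1-4* FRI 1W cold and 6.33 ± 0.52% in *vrn1-4* FRI warm (SD, n = 4 and 3). The change in WT FRI was -0.28, and the genotype difference 0.28 (SE 0.14, exact permutation test, adjusted p = 0.919). At the -1 nucleosome and TSS gap the change was 0.03 in *vrn1-4* FRI and -0.37 in WT FRI, and the difference 0.40 (SE 0.32, exact permutation test, adjusted p = 0.919). In both parts the cold and warm libraries were apart in WT FRI and overlapped in *vrn1-4* FRI, where cold replicate 4 was the highest library. Without it the *vrn1-4* FRI change was -0.087 and the genotype difference 0.19 in exon 7, and at the -1 nucleosome and TSS gap the change was -0.12, the sign of WT FRI, and the difference 0.25. At this gap the *vrn1-4* FRI change was also negative without *vrn1-4* FRI warm replicate 2 (-0.13, difference 0.24) or 3 (-0.041), and without *vrn1-4* FRI warm replicate 1 the difference was 0.63. None of these passed the exact permutation test (adjusted p of the differences from 0.534 to 0.969).

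**Figure D4:**
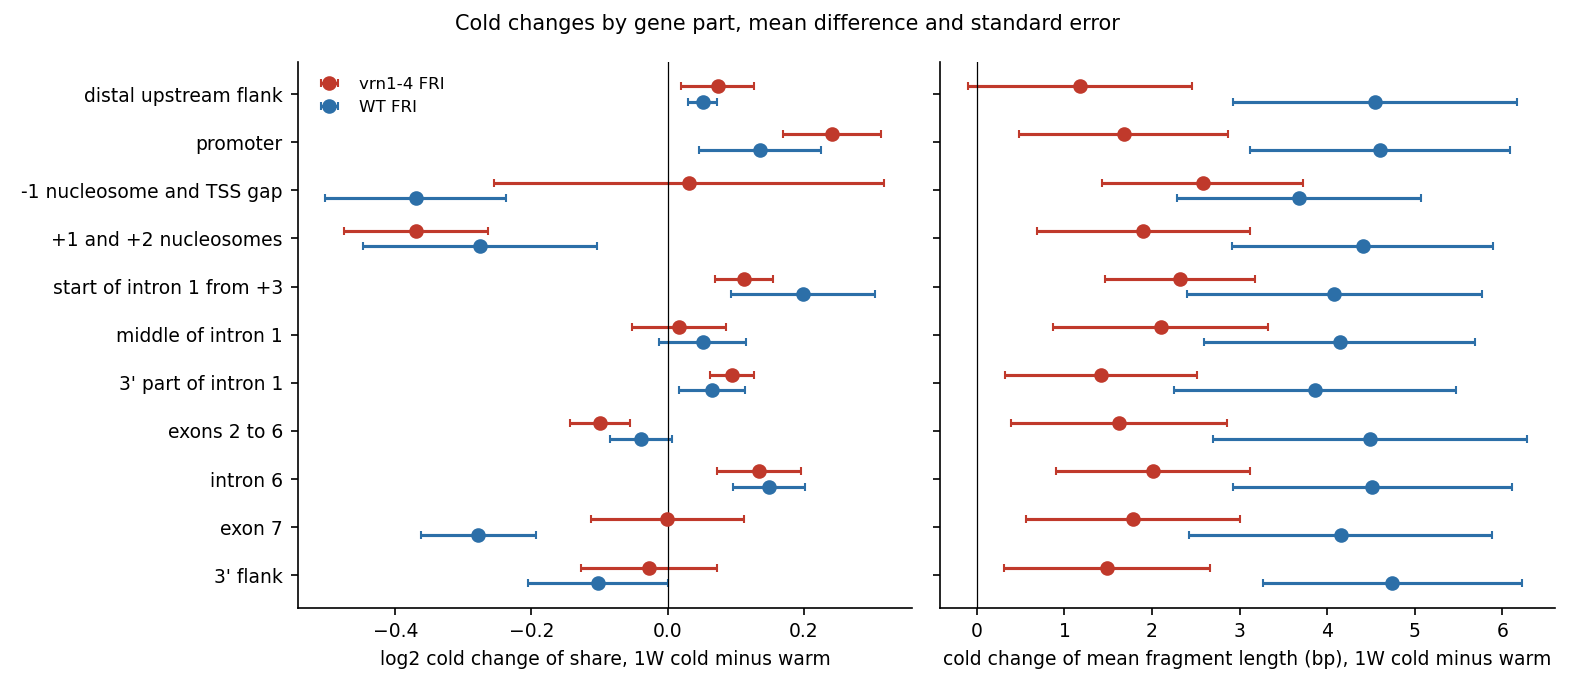
Cold change by gene part in *vrn1-4* FRI (upper point of each pair) and WT FRI (lower point), as log2 share (left) and as mean fragment length in bp (right), with standard errors from the spread of libraries. Share changes differ in sign between the genotypes only at the -1 nucleosome and TSS gap, where the sign in *vrn1-4* FRI turns negative without cold replicate 4 (-0.12) or warm replicate 2 (-0.13) or 3 (-0.041), and mean length was higher in the cold in every part in both genotypes.

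Fragments were longer in the cold throughout the locus. The mean length was higher in the cold in all 11 parts in both genotypes, by 1.18 to 2.58 bp in *vrn1-4* FRI and by 3.67 to 4.74 bp in WT FRI. The average change was 2.64 to 3.26 bp and passed in 11 of 11 parts (exact permutation test, adjusted p from 0.00641 to 0.0131). The change was smaller in *vrn1-4* FRI in every part, by 1.09 bp at the -1 nucleosome and TSS gap and by 3.37 bp in the distal upstream flank, but in 0 of 11 parts did this genotype difference pass (smallest unadjusted p = 0.139 by the exact permutation test, adjusted p = 0.574, in the 3' flank; 0 parts at an unadjusted p under 0.05, and 0 by limma with the replicate block). Without WT FRI warm replicate 2 the difference turned to 0.17 bp at the -1 nucleosome and TSS gap and was between -1.92 and -0.39 bp in the other 10 parts. The 11 parts come from the same libraries, so they do not repeat the comparison independently. Mean length was also lower in *vrn1-4* FRI than in WT FRI in every part, in the cold and in the warm. This gap in level makes a genotype difference of the change harder to detect by the exact permutation test. The count of 0 does not show equal changes.

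The part with the nearest changes in length was the -1 nucleosome and TSS gap. The mean length there was 130.60, 130.57, 131.94 and 129.49 bp in *vrn1-4* FRI 1W cold, against 129.19, 126.00 and 129.01 bp in *vrn1-4* FRI warm, and 132.87, 135.39, 134.34 and 134.61 bp in WT FRI 1W cold, against 131.50, 128.09 and 132.29 bp in WT FRI warm. All cold libraries were above all warm libraries of their genotype. The same was true in *vrn1-4* FRI of only 1 other part, the start of intron 1 from the +3 nucleosome, and in WT FRI of every part but that one.

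By length class, the average cold change passed in 4 of 5 classes (80.0%, exact permutation test with Benjamini-Hochberg adjustment over 5 classes) and a genotype difference in 0 (0 also at an unadjusted p under 0.05, smallest p = 0.207). Gaps in level between the genotypes make such a difference harder to detect by this test. At 140 to 150 bp the means of *vrn1-4* FRI and WT FRI were 33.0 and 46.3% in the cold and 28.4 and 34.0% in the warm. The count of 0 does not show that the classes responded alike. The longest class, 140 to 150 bp, held 33.4, 31.7, 37.8 and 29.0% in *vrn1-4* FRI 1W cold, against 30.8, 23.4 and 31.0% in *vrn1-4* FRI warm, and 44.5, 48.1, 46.7 and 45.9% in WT FRI 1W cold, against 34.7, 26.9 and 40.5% in WT FRI warm. The cold libraries of WT FRI were above all others, and the *vrn1-4* FRI groups overlapped. The change was 0.22 in *vrn1-4* FRI and 0.46 in WT FRI (average 0.34, SE 0.12, exact permutation test, adjusted p = 0.00816), and the genotype difference -0.24 (SE 0.23, exact permutation test, adjusted p = 0.546).

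The 3 classes under 130 bp fell in the cold, by 0.30, 0.30 and 0.25 on average for fragments under 110 bp, from 110 to under 120 bp and from 120 to under 130 bp (exact permutation test, adjusted p = 0.0112, 0.0112 and 0.00816). In *vrn1-4* FRI the changes were -0.13, -0.18 and -0.15 and in WT FRI -0.47, -0.43 and -0.35 in the same order. The class from 130 to under 140 bp did not pass. It held 19.5 ± 0.919% in *vrn1-4* FRI 1W cold and 18.9 ± 1.14% in *vrn1-4* FRI warm, and 19.3 ± 0.745% in WT FRI 1W cold and 19.3 ± 1.53% in WT FRI warm (SD, n = 4 cold and 3 warm).

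**Figure D5:**
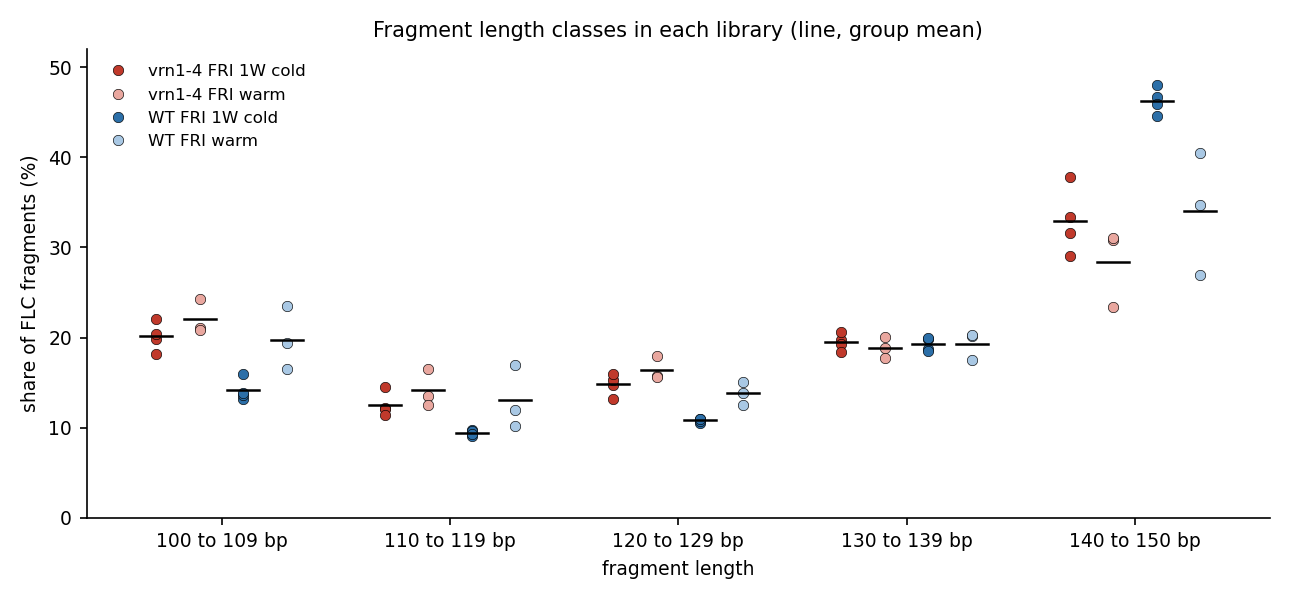
Share of *FLC* fragments in 5 length classes (percent), 1 point per library and a line at the group mean. In WT FRI the cold libraries are apart from the warm ones in every class but that from 130 to under 140 bp, and in *vrn1-4* FRI cold and warm overlap in all 5.

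Crossing the 11 parts with the 5 classes gave 55 combinations. The average cold change passed in 31 of 55 (56.4%, limma), with 10 (18.2%) higher and 21 (38.2%) lower, and 35 (63.6%) had an unadjusted p under 0.05. In the same fit, a genotype difference passed in 0 (5 combinations, 9.09%, at an unadjusted p under 0.05 by limma). Within WT FRI alone 34 combinations (61.8%) passed, and within *vrn1-4* FRI 0 (8 at an unadjusted p under 0.05 by limma). The direction was shared by the genotypes in 43 of 55 combinations, and r between the changes was 0.86. In the class under 110 bp all 11 parts were lower in the cold in WT FRI (10 past the threshold), and 2 of them were higher in the cold in *vrn1-4* FRI. Without *vrn1-4* FRI warm replicate 2 the average change passed in 18 combinations.

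The 3 combinations with the smallest p for a genotype difference were all in the class under 110 bp and lay in the promoter, the 3' flank and the distal upstream flank (limma adjusted p = 0.338 each). In the promoter this class held 0.654, 0.716, 0.698 and 0.738% of all fragments in *vrn1-4* FRI 1W cold, against 0.617, 0.724 and 0.627% in *vrn1-4* FRI warm, and 0.620, 0.533, 0.468 and 0.463% in WT FRI 1W cold, against 0.660, 0.773 and 0.622% in WT FRI warm. The cold libraries of WT FRI were below their warm libraries, narrowly for replicate 1, while the *vrn1-4* FRI groups overlapped. The change was 0.10 in *vrn1-4* FRI and -0.39 in WT FRI, a difference of 0.49 (SE 0.17). The difference was 0.51 (SE 0.20) in the 3' flank and 0.42 (SE 0.17) in the distal upstream flank.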

How the data were processed

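The authors trimmed reads with fastp, aligned the pairs to TAIR10 with Bowtie2, sorted them by locus with SAMtools 1.5 and kept *FLC* fragments of 100 to 150 bp. In the deposited values, each start and end pair found in a library has a fraction, its fragments divided by all *FLC* fragments there. Whether PCR duplicates were removed is not given in the sources used here, and 0 columns of other samples were left aside. The fractions were summed by midpoint in bins, parts and length classes.

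Libraries were grouped by their labels. The members, bins, parts and classes were chosen with earlier results of these data known. Values of log2(share + 0.0001) of bins, and of combinations of part and class, were tested with limma 3.58.1 (R 4.3.3). A single model held the 4 groups (14 libraries), a mean share of at least 0.0001 was required, and the threshold on adjusted p was 0.05. For parts, classes and mean lengths, exact permutation tests (two-sided) were run on log2 shares or bp. The average change permuted temperature within genotype (1225 arrangements, smallest p 0.000816), the genotype difference permuted genotype within temperature (1400 arrangements, smallest p 0.00143), and 35 arrangements within 1 genotype allow no p under 0.0286. Permuting genotype labels also shuffles any gap in level between the genotypes. Such a gap widens the reference distribution, so the exact test of the genotype difference can miss a difference of the cold change. The scripts were tested on simulated data. Python 3.11.15, numpy, pandas, scipy and matplotlib were used.

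The bins named were the 6 with the smallest p among those past the threshold for the average change, the 6 with the smallest p for the genotype difference, whether or not they passed, and up to 3 past the threshold within each genotype. Of the 55 combinations, the 3 with the smallest p for the genotype difference were named, and all parts and classes were tested. The class of 140 to 150 bp at the +1 and +2 nucleosomes was given besides these, for its direction.

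Replicate numbers were checked for pairing. Between *vrn1-4* FRI cold and warm, deviations from the means of replicates 1 to 3 correlated within each number (r = 0.41, 0.52 and 0.36), but from the means of the whole groups r was -0.23, 0.56 and 0.61. In WT FRI no pair reached 0.1. The labels give no shared batch, and the 2 forms of the check disagree, so pairing is open and block results are printed where they change a call. Gene models came from the RefSeq annotation of TAIR10.1. GC adjustment and the fit of replicates 1 to 3 were chosen after seeing the data.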

Additional observations from a re-analysis of the deposited data

Results flagged for a closer look

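A test for a library apart from the other 3 of its group (by the gap to the nearest library as a share of the group's range) was run on 78 groups of 4 libraries and picked out 5, where chance gives about 1 in 20. The 5 of 78 are near that rate, so nothing is read from this count. All 5 were WT FRI 1W cold replicate 1, and values of 1 library are not independent of each other. Its share was the highest of the group at 167 to 266 bp in exon 1 (1.27%), and the lowest at 967 to 1066 bp (0.723%) and at 1367 to 1466 bp (1.32%), both in intron 1. Its mean fragment length was the lowest at the start of intron 1 from the +3 nucleosome (129.7 bp) and in exons 2 to 6 (131.8 bp).

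The cold change of the bin at 367 to 466 bp differed between the genotypes by the test of the difference itself, at -0.61 (limma adjusted p = 0.0374). This call held in 2 of 14 omissions of a single library. It did not hold with the replicate blocks (limma adjusted p = 0.0609 additive and 0.357 within genotype). With each distinct fragment counted once the difference was -0.28 (limma adjusted p = 0.575).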

How the results depend on the processing

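The number of bins with an average cold change (11) was 6 with bins of 200 bp, 23 with a mean share of at least 0.002, 17 with length-standardised shares, 44 with array weights, 33 with the additive replicate block, 30 with the block within genotype, 7 with GC-adjusted shares and 34 with replicates 1 to 3. Leaving out each library gave 0 to 40. The number with a genotype difference (1) was 0 with bins of 200 bp, shifted bins, distinct fragments counted once, fragments of 120 to 150 bp, either replicate block and replicates 1 to 3, and 0 to 1 without each library. For *vrn1-4* FRI (0) it was 25 with array weights and 12 with the block within genotype, and 0 to 9 without each library. For WT FRI (2) it was 9 with bins of 50 bp, 4 with bins of 200 bp, shifted bins or fragments of 120 to 150 bp, 0 with distinct fragments, 31 with array weights, 17 with the additive block, 0 with the block within genotype, 7 with GC adjustment and the additive block, and 1 to 14 without each library.

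Gene parts with an average change (4) numbered 0 to 7 without each library and 6 with the additive block. Length classes (4) numbered 2 of 2 with a split at 130 bp, and 4 in every omission. Mean length (11 parts) gave 10 to 11, and combinations of part and class (31) gave 18 to 37 without each library. Differences of parts, lengths, classes and combinations numbered 0 in every alternative run, the additive block included. The correlation of the profiles was 0.49 to 0.77 over the alternatives and 0.51 to 0.74 without each library (jackknife SE 0.24). The named changes that passed kept their direction in the alternatives run. Of those that did not pass, the *vrn1-4* FRI change at the -1 nucleosome and TSS gap (0.03) was -0.025 with distinct fragments counted once and -0.13 to 0.26 without each library. The genotype difference in exon 7 (0.28) was -0.033 with distinct fragments. The *vrn1-4* FRI change in exon 7, near 0, was 0.0092 with fragments of 120 to 150 bp, 0.024 percentage points untransformed and -0.087 to 0.062 without each library. The genotype difference of mean length at the -1 nucleosome and TSS gap (-1.09 bp) was -2.13 to 0.17 bp without each library. Beyond fewer libraries or features tested, the cause was not tested. No counts were inferred from the fractions, so counting error was not separated from the spread between libraries.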
